A study of Mus musculus with 24 samples.

Results

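H3K4me3, the trimethylation of lysine 4 of histone H3 that marks active promoters, was measured at the genes that make GABA and load it into synaptic vesicles: Gad1, Gad2 and Slc32a1. The 3 genes were fixed by name, and their regions were the counted regions that overlap an annotated transcription start site (TSS, mm9, GENCODE release M1). By this rule 2 of the 3 genes had a region, 1 each for Gad1 and Gad2, of 17993 regions in all. For Slc32a1 no region covered either annotated start, and the single region inside the gene, which begins 183 bp downstream of the nearer start, is described in its place. That substitution was made after the data had been seen.

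GABA is the main inhibitory transmitter of the cerebral cortex. It is made from glutamate by glutamate decarboxylase, whose isoforms GAD67 and GAD65 are encoded by Gad1 and Gad2. GAD67 is found throughout the neuron and makes most of the GABA, whereas GAD65 is concentrated at nerve terminals. Slc32a1 encodes VGAT, the transporter that fills synaptic vesicles with GABA or glycine. In the cortex the 3 genes are known as defining genes of inhibitory interneurons, while Camk2a is expressed mainly in excitatory projection neurons.

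The tissue was cerebral cortex of C57BL/6 mice, and each lysate pooled frozen tissue from a pair of adult animals. In the Rosa H2B-FLAG line (labelled Rosa CAG-H2B-FLAG), FLAG-tagged histone H2B was expressed in nearly all cells from the Rosa26 locus under the CAG promoter, after germline removal of a floxed stop by Vasa-Cre. In the Camk2a H2B-FLAG line (labelled Rosa26 CAG-floxed-pA-H2B-FLAG/ CaMKCreERT2), the same cassette was switched on by tamoxifen in cells that express the Camk2a-driven CreERT2. Both lines carry the Rosa26 cassette, but besides the cells that are tagged they differ in the Cre driver, in tamoxifen, given to adult males of the Camk2a line, and in how long the tag was present, which was from development on in the Rosa line. These cannot be told apart in a comparison of the lines. In single ChIP-Seq, chromatin was precipitated with the anti-H3K4me3 antibody alone and thus came from all cells of the tissue. In tandem ChIP-Seq (tChIP-Seq), it was precipitated first with anti-FLAG and then with anti-H3K4me3. There were 3 libraries for each line and assay, 12 with counts, and the 12 input and FLAG libraries were not analysed here.

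Total counts per library ranged from 1457261 to 8644574 and were lowest in Rosa tChIP-Seq. Levels are given as CPM, the counts scaled to library size with TMM factors over the 12 libraries, and changes as log2 fold changes with their SE from edgeR. A region was called at an adjusted p under 0.01, by edgeR's quasi-likelihood test with Benjamini-Hochberg adjustment over all 17993 regions. Of the 6 genes listed for cortical position, 4 had a region, Emx1 and Lhx2 among them, while Tbr1 had none. Their summed level was 463 to 487 CPM in Rosa single ChIP-Seq, against 31.9 to 36.8 CPM for the 3 measured genes of the cerebellum and hindbrain list. A bulk tissue does not tell fewer cells of a type from less modification per cell.

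All 3 genes lie on the plus strand of chromosome 2, far from each other. The Gad1 region covered chr2:70399966-70402801, 2836 bp, from 133 bp before the first base of the transcript Gad1-001 to the intron after exon 2 of 17. It held the starts of 6 of the 8 annotated Gad1 transcripts and also the start of 1500002O10Rik, a transcript read from the opposite strand. Since ChIP reads carry no strand of transcription, the 2 promoters cannot be told apart in this region. The Gad2 region covered chr2:22477599-22479646, 2048 bp, from 126 bp before Gad2-001 into the intron after exon 3 of 16, with both annotated starts. The Slc32a1 region covered chr2:158436686-158439211, 2526 bp, within exon 1 and the only intron of the gene, and it held the start of the antisense transcript Gm14205. As it held no start of Slc32a1, its values cannot be assigned to the Slc32a1 promoter. The 3 widths compare with a median of 2060 bp over the 13404 regions at a TSS, so the Gad1 and Slc32a1 regions were wider than 75.7% and 67.5% of these, and the Gad2 region than 49.6%.

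**Figure D1:**
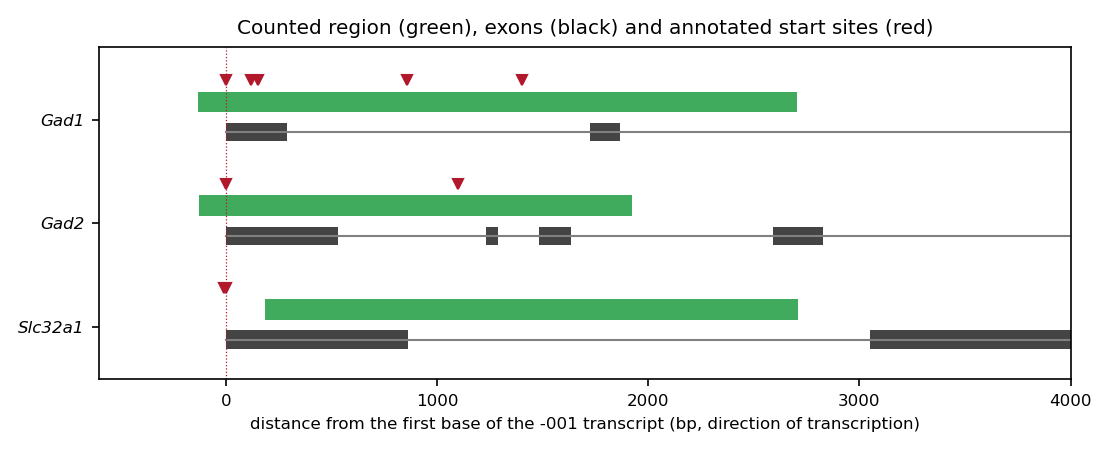
Counted regions of Gad1, Gad2 and Slc32a1 drawn to scale against the distance in bp from the first base of the -001 transcript of each gene (x axis). Green bars are the regions, black boxes the exons and red triangles the annotated start sites. The Gad1 and Gad2 regions begin 133 and 126 bp before that base, and the Slc32a1 region begins 183 bp after it.

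The sequence just before each gene is shown because it is where the regions begin or, for Slc32a1, the stretch that the region leaves out. The bases are those of the RefSeq promoter table (GRCm38.p6), which held all 3 genes, placed on mm9 by an exact match and cut before the first base of the transcript, on the plus strand and 5′ to 3′. Capitals mark matches, on either strand, to the motifs searched. These were the TATA box form TATAAA, the CCAAT box, the GC box GGGCGG, the cyclic AMP response element TGACGTCA, the homeobox core TAATTA and the E-box CANNTG.
Gad1, chr2:70399936-70400098: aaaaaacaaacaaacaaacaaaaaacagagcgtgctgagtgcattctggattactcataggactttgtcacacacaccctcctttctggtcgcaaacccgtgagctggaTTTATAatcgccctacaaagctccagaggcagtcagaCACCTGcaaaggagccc
Gad2, chr2:22477597-22477724: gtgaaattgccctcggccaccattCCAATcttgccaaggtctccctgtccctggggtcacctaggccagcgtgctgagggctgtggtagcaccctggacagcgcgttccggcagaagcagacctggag
Slc32a1, chr2:158436244-158436493: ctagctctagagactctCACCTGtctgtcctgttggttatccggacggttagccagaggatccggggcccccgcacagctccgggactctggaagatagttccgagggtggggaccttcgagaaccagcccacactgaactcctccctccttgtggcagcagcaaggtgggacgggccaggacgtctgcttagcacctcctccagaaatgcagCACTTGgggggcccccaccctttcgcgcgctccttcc

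The 3 promoters differed in their motifs. The RefSeq start lay 34 bp before the nearest GENCODE start for Gad1, 122 bp after it for Gad2 and at the same base for Slc32a1. Within the 300 bases of the RefSeq table, 250 before and 50 after the RefSeq start, Gad1 had 1 TATAAA on the reverse strand (TTTATA, first base at -141 from the RefSeq start), which 13.6% of the 32851 promoters hold, and 1 GGGCGG on the reverse strand, which 35.7% hold. Gad2 had 2 matches to CCAAT, found in 37.4% of promoters, and none to TATAAA. The E-box form CANNTG, held by 72.3% of promoters, was found once in Gad1 and in Gad2 and at 2 places in Slc32a1, which had no match to the other motifs. None of the 3 held TGACGTCA or TAATTA, which 1.79% and 5.29% of promoters hold. All 3 regions were richer in G and C than the median. The GC content of the counted regions was 60.0% for Gad1, 60.3% for Gad2 and 56.5% for Slc32a1, above the median of 54.2% over regions at a TSS, and the ratio of observed to expected CpG was 0.668, 0.634 and 0.603 against a median of 0.605. These matches and contents are descriptions of the sequence, and no match says only that these letters are absent from the window.

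The first question was the level of H3K4me3 at these regions in each group. Per kilobase, all 3 regions were weak. In Rosa single ChIP-Seq the level was 9.94 ± 0.379 CPM per kb at Gad1, 9.17 ± 0.253 at Slc32a1 and 8.65 ± 0.576 at Gad2 (mean ± SD, n = 3), where the median region at a TSS had 29.3. Only 11.0%, 9.76% and 8.77% of regions at a TSS lay below them. In this group the lowest Gad1 library, at 9.69 CPM per kb, lay above the highest of the others, at 9.46 for Slc32a1 and 9.11 for Gad2, whereas the Slc32a1 and Gad2 ranges overlapped. In Camk2a tChIP-Seq the order was Gad2 at 7.14 ± 1.65, Gad1 at 4.52 ± 0.390 and Slc32a1 at 3.12 ± 0.455 CPM per kb, with no overlap between the ranges of the 3 regions. Of the regions at a TSS, 4.67%, 2.63% and 1.60% were below these levels in that group. Gad2 also had the highest mean in Rosa tChIP-Seq, at 10.45 against 9.22 for Gad1 and 6.005 for Slc32a1, with overlapping Gad2 and Gad1 ranges. In Camk2a single ChIP-Seq its mean was the lowest, at 8.19 against 10.96 and 8.47. The mean of Gad2 was thus the lowest of the 3 in single ChIP-Seq and the highest in tChIP-Seq, in both lines.

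The Gad1 region, at the promoter of the main GABA-synthesizing enzyme, had counts of 191, 246 and 168 in the Rosa single ChIP-Seq libraries, or 27.7, 29.4 and 27.5 CPM. In Rosa tChIP-Seq the counts were 50, 46 and 38, or 26.1, 27.4 and 24.9 CPM. Camk2a single ChIP-Seq gave 112, 149 and 121 counts, or 27.6, 35.5 and 30.2 CPM, and Camk2a tChIP-Seq gave 36, 35 and 38 counts, or 11.8, 12.6 and 14.0 CPM. The highest Camk2a tChIP-Seq library therefore lay far under the lowest of the other 9, and the other 3 groups lay close together. From the highest mean to the lowest, the order was Camk2a single (31.1 ± 4.07), Rosa single (28.2 ± 1.08), Rosa tChIP (26.1 ± 1.25) and Camk2a tChIP (12.8 ± 1.11 CPM). Of the neighbours in this order, the ranges of the Camk2a and Rosa single ChIP-Seq libraries overlapped, and those of Rosa single and Rosa tChIP-Seq did not, although their difference did not pass the test.

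The Gad2 region, at the promoter of the terminal form of the enzyme, had 125, 137 and 114 counts in Rosa single ChIP-Seq, or 18.1, 16.4 and 18.6 CPM. In Rosa tChIP-Seq it had 45, 43 and 23 counts, or 23.5, 25.6 and 15.1 CPM. Camk2a single ChIP-Seq gave 68, 78 and 60 counts, or 16.7, 18.6 and 14.9 CPM, and Camk2a tChIP-Seq gave 56, 38 and 32 counts, or 18.4, 13.7 and 11.8 CPM. Every pair of groups overlapped here. Replicate 3 of Rosa tChIP-Seq lay below the other libraries of its group, and replicate 1 of Camk2a tChIP-Seq above those of its own. The order of the means was Rosa tChIP (21.4 ± 5.58), Rosa single (17.7 ± 1.18), Camk2a single (16.8 ± 1.83) and Camk2a tChIP (14.6 ± 3.39 CPM), and no neighbours in it differed beyond their spread.

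The Slc32a1 region, in the gene of the vesicular transporter, had 165, 191 and 139 counts in Rosa single ChIP-Seq, or 23.9, 22.9 and 22.7 CPM. Rosa tChIP-Seq gave 28, 21 and 28 counts, or 14.6, 12.5 and 18.4 CPM. In Camk2a single ChIP-Seq there were 75, 105 and 83 counts, or 18.5, 25.1 and 20.7 CPM, and in Camk2a tChIP-Seq 22, 20 and 25 counts, or 7.22, 7.22 and 9.21 CPM. The libraries of each tChIP-Seq group lay under those of both single ChIP-Seq groups, and the Camk2a tChIP-Seq libraries under all others. The means ran from Rosa single (23.2 ± 0.639) through Camk2a single (21.4 ± 3.35) and Rosa tChIP (15.2 ± 2.96) to Camk2a tChIP (7.88 ± 1.15 CPM). The first 2 of these overlapped in range, while the next neighbours, 18.5 CPM as the lowest Camk2a single and 18.4 CPM as the highest Rosa tChIP-Seq library, were nearly equal and were not compared by a test.

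**Figure D2:**
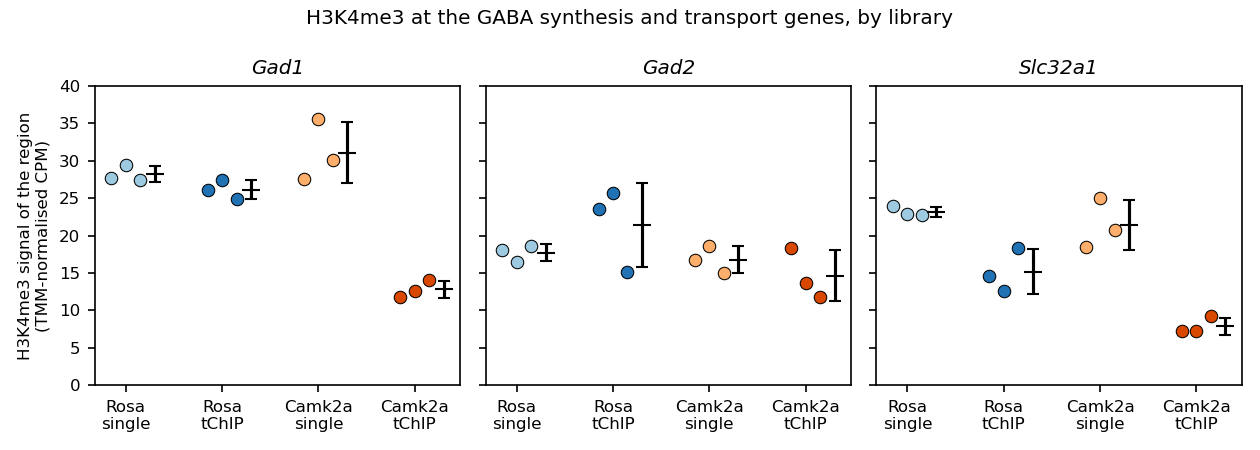
H3K4me3 level (TMM-normalised CPM, y axis from 0) of the Gad1, Gad2 and Slc32a1 regions in each library, for the 4 groups of 3 libraries on the x axis. Points are libraries, and the black bars beside them the mean and SD. At Gad1 and Slc32a1 the 3 Camk2a tChIP-Seq libraries lie below all others, with means of 12.8 and 7.88 CPM, while the 4 groups overlap at Gad2.

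The comparison of the lines in tChIP-Seq asks how H3K4me3 in chromatin of tagged Camk2a-expressing cells differs from that in chromatin of tagged cells of all kinds. Gad1 was lower in Camk2a H2B-FLAG, with a log2 fold change of -1.03 ± 0.184 (SE), equal to a 2.04-fold lower level, and an adjusted p of 2.19e-06 in edgeR. Slc32a1 was lower by a like amount, at -0.93 ± 0.242 or 1.90-fold, with an adjusted p of 0.00102. Gad2 had a log2 fold change of -0.55 ± 0.197, a 1.46-fold lower level, which missed the threshold at an adjusted p of 0.0198. In this comparison 14.6% of all regions were called lower and 17.0% higher, and of the 3 member regions 2 were called lower and none higher. Ranked from the lowest log2 fold change, 7.53% of all regions lay below Gad1, 8.39% below Slc32a1 and 13.8% below Gad2. The groups did not overlap at Gad1 and Slc32a1 and overlapped at Gad2.

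Individual libraries mattered for the 2 regions with the smaller effects. Without Rosa tChIP-Seq replicate 3, Gad2 reached -0.72 with an adjusted p of 0.00351, and without Camk2a tChIP-Seq replicate 1 it reached -0.76 with an adjusted p of 0.00286, both past the threshold in edgeR. Slc32a1 without Rosa tChIP-Seq replicate 3 stood at -0.79 with an adjusted p of 0.0182, no longer past it. Gad1 stayed called without any single library, and its log2 fold change lay between -1.10 and -0.97 over the alternatives of scaling, test, filter, threshold, block and library. The tChIP-Seq counts behind these values were small, from 20 to 56 per library, for which counting alone gives a relative SD of 22.4% to 13.4%.

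In single ChIP-Seq, which takes the chromatin of all cells in both lines, none of the 3 regions was called between the lines. The log2 fold changes were 0.14 ± 0.0982 for Gad1 (adjusted p = 0.436 in edgeR), -0.07 ± 0.128 for Gad2 (adjusted p = 0.799) and -0.11 ± 0.113 for Slc32a1 (adjusted p = 0.598). Their 95% intervals, from the SE and the normal distribution, were -0.06 to 0.33, -0.32 to 0.18 and -0.34 to 0.11. Of all regions, 0.928% were called higher and 1.22% lower in this comparison. The ranges of both lines overlapped at each of the 3 regions.

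The difference between these comparisons was tested directly as the interaction of line and assay over the 12 libraries. It was -1.17 ± 0.212 for Gad1, with an adjusted p of 6.15e-07, and -0.82 ± 0.269 for Slc32a1, with an adjusted p of 0.00891, both past the threshold of the edgeR test. For Gad2 it was -0.49 ± 0.234, with an adjusted p of 0.0956, and was not called. The background of this test was 13.2% of all regions below 0 and 13.7% above. The call of Slc32a1 was close to the threshold. It was lost without replicate 2 of Camk2a single ChIP-Seq (adjusted p = 0.0417 in edgeR), without replicate 1 or 2 of Camk2a tChIP-Seq (0.0317 and 0.0259), without replicate 2 or 3 of Rosa single ChIP-Seq (0.0131 and 0.0121), and without replicate 1 or 3 of Rosa tChIP-Seq (0.0195 and 0.0680), where its log2 value lay between -0.85 and -0.68. The Gad1 interaction stayed called in each of these fits.

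**Figure D3:**
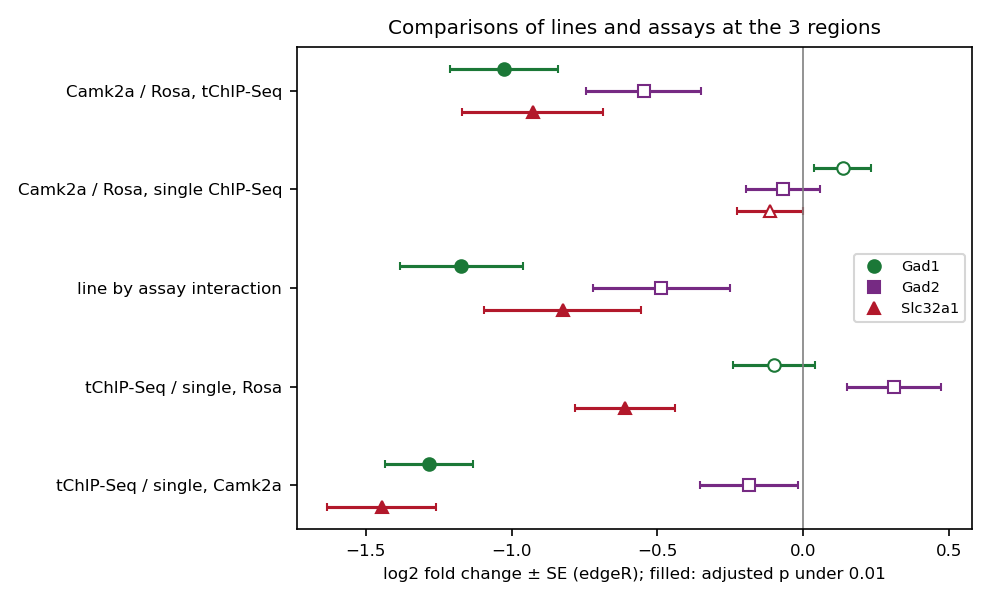
Log2 fold changes with SE from edgeR (x axis) of the Gad1, Gad2 and Slc32a1 regions for the lines compared by tChIP-Seq or by single ChIP-Seq, their interaction, and the comparison of assays in each line (y axis). Filled symbols passed an adjusted p of 0.01. Gad1 and Slc32a1 are at -1.03 and -0.93 between the lines in tChIP-Seq and near 0 in single ChIP-Seq, and Gad2 is open in every comparison.

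The comparison of tChIP-Seq with single ChIP-Seq within a line sets the tagged cells beside the whole tissue. It also carries any effect of the added anti-FLAG precipitation. In Rosa H2B-FLAG, where nearly all cells are tagged, Gad1 did not pass the test (-0.10 ± 0.140, adjusted p = 0.552 in edgeR) and neither did Gad2 (0.31 ± 0.162, adjusted p = 0.0879). Slc32a1 was lower in tChIP-Seq, by 1.53-fold (-0.61 ± 0.171, adjusted p = 0.00101), in a comparison where 22.5% of all regions were called lower and 24.7% higher. This call was lost without Rosa tChIP-Seq replicate 1 (-0.59, adjusted p = 0.0125) or replicate 2 (-0.50, adjusted p = 0.0247). With all libraries the Slc32a1 region thus differed between the assays even in the line tagged in nearly all cells, and the cause was not tested. The interaction takes an assay effect into account only as far as that effect is the same in both lines.

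In Camk2a H2B-FLAG, Gad1 and Slc32a1 were both lower after the tandem precipitation than after the single one. Gad1 had a log2 fold change of -1.28 ± 0.150, a 2.43-fold lower level, with an adjusted p of 5.88e-14 in edgeR. Slc32a1 had -1.44 ± 0.187, a 2.72-fold lower level, with an adjusted p of 6.42e-12. Gad2 had -0.19 ± 0.169 and was not called (adjusted p = 0.344). Here 22.6% of all regions were called lower and 25.3% higher, and only 2.94% of regions had a lower log2 fold change than Gad1 and 2.46% a lower one than Slc32a1, whereas 31.0% lay below Gad2. The comparisons of lines and of assays share libraries and are not independent of each other.

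The members were also set against each other within each library, which removes any scaling between libraries. The log2 ratio of Gad1 to Gad2 was 0.672 ± 0.152 in Rosa single, 0.889 ± 0.151 in Camk2a single, 0.325 ± 0.347 in Rosa tChIP and -0.169 ± 0.445 in Camk2a tChIP-Seq (mean ± SD, n = 3). In the Camk2a line the ratio of every tChIP-Seq library lay below that of every single ChIP-Seq library, by a mean difference of -1.06, with an exact permutation p of 0.1 (two-sided), the smallest that 3 against 3 can give. The ratio of Gad2 to Slc32a1 rose between the same groups from -0.346 ± 0.178 to 0.877 ± 0.498, also without overlap and with the same p. Between the assays in the Rosa line this ratio rose as well, from -0.389 ± 0.0972 to 0.478 ± 0.683, and that of Gad1 to Slc32a1 from 0.283 ± 0.0775 to 0.803 ± 0.347, both without overlap and with an exact permutation p of 0.1. Between the lines in tChIP-Seq, however, no ratio separated the groups, with differences of -0.494 for Gad1 to Gad2, -0.0955 for Gad1 to Slc32a1 and 0.398 for Gad2 to Slc32a1 and exact permutation p-values of 0.300, 0.700 and 0.600. After adjustment over the 12 ratio tests the smallest p was 0.200. The smaller change of Gad2 between the lines was therefore not shown to differ from that of the other members.

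Over the 12 libraries the levels of Gad1 and Slc32a1 ran together more closely than either did with Gad2. On log2(CPM + 1), Gad1 and Slc32a1 correlated at r = 0.927, Gad1 and Gad2 at 0.431, and Gad2 and Slc32a1 at 0.195. Among 13748 genes with a mean count of at least 50 at their TSS region, those most like Gad1 were Slco1a4 (r = 0.982), Clec2d (0.981), Il33 (0.976) and the pair Mir1897 and Sox2ot, which share a region (0.975). Those most like Gad2 were Prdx4 (0.960), D930048N14Rik and N4bp3, which share a region (0.881), Ascc2 (0.867) and Ell (0.865). Those most like Slc32a1 were Nasp (0.989), Sec31a (0.984), Cldn11 (0.980) and Fgd6 and Vezt, which share a region (0.976). The 12 points fall into 4 groups and share their depth and scaling, so each r mostly reflects 4 group levels.

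Neighbouring regions were read beside the members. The only other region within 50 kb of Gad1, at chr2:70346665-70347968, holds the starts of 4933404M02Rik and Gm16292. It had 30.5 ± 6.02 CPM in Rosa tChIP-Seq and 21.4 ± 2.59 in Camk2a tChIP-Seq and was called lower between the lines (-0.52 ± 0.162, adjusted p = 0.00664 in edgeR), with overlapping groups. Its interaction was -0.58 ± 0.209 (adjusted p = 0.0187) and was not called. Near Slc32a1, the region of Actr5, an actin-related subunit of the INO80 chromatin remodeller, had 81.9 ± 6.14 and 71.5 ± 2.46 CPM in the same groups and was not called (-0.19 ± 0.0922, adjusted p = 0.0988). No other region lay within 50 kb of Gad2.

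The rest of the GABA system was read from lists of genes, through the strongest region over a TSS of each gene or, for 11 of the 116 listed genes with a region, a region within 1000 bp of a TSS. Of the steps on either side of synthesis, supply but not breakdown held genes called between the lines in tChIP-Seq. Of the 7 measured genes that supply glutamate and glutamine, 1 was called higher and 3 lower (median log2 fold change -0.04, against -0.0033 over all regions). Of all regions, 17.0% were called higher and 14.6% lower in this comparison. Slc38a3, a glutamine transporter known from astrocytes, fell from 83.8 ± 6.64 to 13.2 ± 3.87 CPM (-2.65 ± 0.140), and Glul, the glutamine synthetase of astrocytes, fell from 212.5 ± 14.8 to 139.9 ± 5.51 CPM (-0.59 ± 0.0631). Slc38a2 fell by 0.32 on the log2 scale, while Slc38a1, a glutamine transporter of neurons, rose by 0.58 ± 0.0754. Neither gene of GABA breakdown was called, with Abat, GABA transaminase, at -0.16 and Aldh5a1, succinic semialdehyde dehydrogenase, at -0.02. The decarboxylase relatives Gadl1 and Csad had no region.

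Uptake transporters clear released GABA from around the synapse. Slc6a13 fell by 2.30 ± 0.732 on the log2 scale from a level of only 2.45 ± 1.17 CPM, with 75 counts over the 12 libraries. Its call was lost without any one of 5 libraries, Camk2a tChIP-Seq replicates 1, 2 and 3 and Rosa tChIP-Seq replicates 1 and 2, at adjusted p-values between 0.0122 and 0.104, and by the Wald test of DESeq2 (adjusted p = 0.0531). Slc6a11, which encodes GAT-3 of astrocytes, had a log2 fold change of 0.33 ± 0.131 and was not called (adjusted p = 0.0344), but was called without Rosa tChIP-Seq replicate 3 (0.47, adjusted p = 0.00761).

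The genes that receive GABA stood on the other side. Of the 14 measured subunits of the GABA-A receptor, the chloride channel opened by GABA, 11 were called higher in Camk2a tChIP-Seq and none lower, with a median log2 fold change of 0.88. The shares over all regions were 17.0% higher and 14.6% lower. Gabra3 rose from 8.88 ± 1.44 to 28.3 ± 3.20 CPM (1.69 ± 0.207) and Gabra5 from 24.5 ± 1.56 to 73.3 ± 2.82 CPM (1.58 ± 0.125). The lowest were Gabre at -0.45 ± 0.255 and Gabrg1 at 0.22 ± 0.144, neither of them called. Of the 6 genes of the GABA-B receptor and its auxiliary subunits, 4 were called higher: the receptor subunits Gabbr1 (0.26 ± 0.0761) and Gabbr2 (0.75 ± 0.0686) and the auxiliary subunits Kctd8 (0.52 ± 0.125) and Kctd16 (1.397 ± 0.0751). Kctd12b was called lower (-1.96 ± 0.261). The call of Gabbr1 was lost without Camk2a tChIP-Seq replicate 2 or without Rosa tChIP-Seq replicate 2 or 3 (adjusted p = 0.0159, 0.0334 and 0.0229 in edgeR), with library totals as the scaling (0.0344) and by the Wald test of DESeq2 (0.0290), and that of Kctd8 without Rosa tChIP-Seq replicate 2 (0.0135).

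At the inhibitory postsynapse, 4 of 6 measured genes were called higher and none lower, although 1 was called lower without Rosa tChIP-Seq replicate 2 or with library totals as the scaling. Among them were Slc12a5, the chloride exporter KCC2 of mature neurons (1.47 ± 0.0785) and the adhesion proteins Slitrk3 (1.15 ± 0.0661) and Nlgn2 (0.56 ± 0.0565). Over all regions, 17.0% were called higher and 14.6% lower between the lines in tChIP-Seq. In the comparison of assays in Rosa H2B-FLAG all 6 were called lower in tChIP-Seq. Of the 14 GABA-A subunits, 10 were called lower there and 3 higher, beside 22.5% and 24.7% of all regions. The interaction takes an assay effect into account as far as it is the same in both lines. The interaction was called above 0 for 4 of the 6 and for 11 of the 14, and below 0 for 1 of the 14 (Gabre, a gene at 4.85 CPM in Rosa single ChIP-Seq).

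The members were then placed beside markers of cell types. Of 13 measured transcription factors of the interneuron lineage, 11 were called lower between the lines in tChIP-Seq and none higher. Of all regions, 14.6% were called lower and 17.0% higher in this comparison. The median log2 fold change of the factors was -0.97. That of the 3 members, -0.93, is the value of the Slc32a1 region, which holds no start of Slc32a1. Gad1 was at -1.03 and Gad2, not called, at -0.55. Among the lowest factors was Prox1 (-1.38 ± 0.126), and Sp8 (-0.42 ± 0.224) and Npas1 (0.49 ± 0.257) had the highest, neither of them called. Between the assays in Rosa H2B-FLAG, 5 of the 13 factors were called higher in tChIP-Seq and none lower (median 0.208). The shares over all regions were 24.7% and 22.5% there. Between the assays in Camk2a H2B-FLAG, 8 factors were called lower in tChIP-Seq and 1 higher (median -0.718). The interaction was called below 0 for 11 of the 13 and above 0 for none. The genes that mark interneuron subtypes did not form such a group. Of 12 only 6 had a region, with Sst, Vip, Npy, Calb2, Htr3a and Cort having none. The nitric oxide synthase gene Nos1 was called higher (0.97 ± 0.158) and the neuregulin receptor gene Erbb4 lower (-0.40 ± 0.0955), the latter not called without Rosa tChIP-Seq replicate 3 (adjusted p = 0.0136 in edgeR). Tac1 stood at 0.32 ± 0.354 and Pvalb, the gene of parvalbumin, at -0.09 ± 0.250, neither called. Striatal projection neurons, which also use GABA, were covered by a list of 10 genes, all with a region. Of these 3 were called higher and 1 lower, beside 17.0% and 14.6% of all regions. Their median was 0.30, and their summed level was 352 to 381 CPM in Rosa tChIP-Seq and 420 to 448 in Camk2a tChIP-Seq.

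The lists of other cell types moved in both directions. Of 11 measured excitatory neuron genes, 9 were called higher and none lower between the lines in tChIP-Seq, with a median of 1.27. Over all regions these shares were 17.0% and 14.6%. The vesicular glutamate transporter gene Slc17a7, the counterpart of Slc32a1 in excitatory neurons, rose by 1.65 and Neurod2 by 1.37, while Rorb (-0.16) and Cux2 (0.14) were not called. The astrocyte list had 9 of 10 called lower (median -1.97), the endothelial list 10 of 10 (median -2.17) and the oligodendrocyte list 7 of 9 (median -1.79), with 1 gene higher in each of the astrocyte and oligodendrocyte lists. In single ChIP-Seq, 4 of the 9 oligodendrocyte genes were also called lower between the lines and none higher, where 1.22% of all regions were called lower. Between the assays in Rosa H2B-FLAG, 8 of the 11 excitatory genes were called lower in tChIP-Seq and 1 higher (median -0.755). There 9 of the 10 astrocyte genes were called higher and 1 lower (median 0.631), beside 24.7% and 22.5% of all regions. The interaction was called above 0 for 9 excitatory genes and below 0 for none, and below 0 for 9 astrocyte genes and above 0 for 1. Only 4 of the 10 microglial genes had a region, each only within 1000 bp of a TSS, and 2 were called lower (median -1.56), a count that was 1 without Camk2a tChIP-Seq replicate 3, without Rosa tChIP-Seq replicate 2 or 3, or by the Wald test of DESeq2. The summed level of the endothelial list was 419 to 428 CPM in Rosa tChIP-Seq and 119 to 125 in Camk2a tChIP-Seq, and that of the astrocyte list 697 to 737 and 386 to 397. For the 3 members the sums were 58.4 to 65.6 and 33.6 to 37.4 CPM in the same groups. The 3 measured genes of the cerebellum and hindbrain list summed to 65.0 to 74.1 and 32.0 to 37.4 CPM there, with 2 called lower. The part of other cell types in the member values was not tested.

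**Figure D4:**
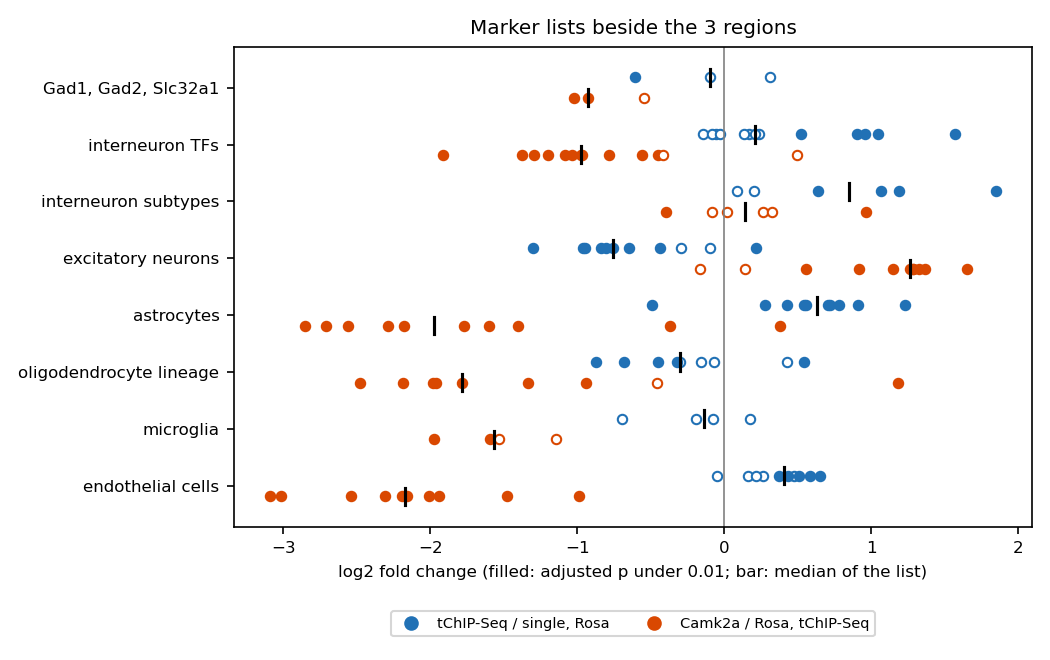
Log2 fold changes of the 3 members and of the genes on 7 marker lists (y axis) between tChIP-Seq and single ChIP-Seq in Rosa H2B-FLAG (blue) and between Camk2a and Rosa H2B-FLAG in tChIP-Seq (orange). Each circle is a gene, filled where the adjusted p in edgeR was under 0.01, and black bars are medians. In orange, the medians are -0.93 for the members and -0.97 for the interneuron transcription factors. They are -1.97 for astrocytes, -2.17 for endothelial cells and 1.27 for excitatory neurons. The member median is the value of the Slc32a1 region, which holds no start of Slc32a1, while Gad1 lies at -1.03 and Gad2 at -0.55.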

How the data were processed

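H3K4me3 ChIP-Seq and tChIP-Seq libraries of mouse cerebral cortex were compared over 4 groups of 3. The authors trimmed reads with the FASTX Toolkit, removed repeats with Bowtie2 2.1.0, mapped the rest to mm9 with Bowtie 1.0.0, discarded duplicates by samtools rmdup, found peaks in triplicate by MACS and obtained the reads of every region from bedtools 2.17.0. They deposited whole-number counts per region without normalization. How the single list of 17993 regions was merged is not given in the sources used here.

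For each comparison its libraries alone were fitted (edgeR 4.0.16, R 4.3.3, TMM, glmQLFit, glmQLFTest, no filter, no covariate), and for the interaction all 12. SEs were obtained from the log2 fold change and the F statistic. Adjusted p under 0.01 was called. Ratios between members were compared by exact permutation tests. The fits were tested on simulated counts, with changes placed only in regions with a mean count of at least 50. Most tChIP-Seq counts of the members, from 20 to 56 per library, lie below that, so the simulation does not cover them.

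Starts were those of GENCODE M1. Of 146 listed genes other than the members, 116 had a region. The members and lists were chosen with earlier results of these data known, and the lists give no independent support. The rule named every region within 50 kb of a member, every called gene of the shorter GABA lists, the 2 highest and 2 lowest of the GABA-A, interneuron and excitatory lists, and the 5 genes most like each member. Other marker lists are given as counts, and some genes that the rule names are not reported here. The p-values measure the spread between the numbered libraries of a group. The alternatives were DESeq2 1.42.0 size factors or its Wald test, library totals, a minimum of 10 counts, a threshold of 0.05, a joint fit, a replicate block and leaving out each library.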

Additional observations from a re-analysis of the deposited data

Results flagged for a closer look

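At 2 of the 3 regions the effect of the line differed between the assays, by the interaction term of edgeR over the 12 libraries. Of all regions, 13.2% were called below 0 and 13.7% above in this test. The Slc32a1 call was lost in 8 of 18 alternatives, and the Gad1 call in none. For Gad1 the log2 fold change between Camk2a and Rosa H2B-FLAG was lower by tChIP-Seq than by single ChIP-Seq, with a difference of -1.17 (adjusted p = 6.15e-07), and for Slc32a1 the difference was -0.82 (adjusted p = 0.00891). In tChIP-Seq the Camk2a libraries of both regions lay below all Rosa libraries, and in single ChIP-Seq the ranges of the lines overlapped.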

How the results depend on the processing

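For Gad1, each of the 5 comparisons kept its direction where called and its side of the threshold under every alternative run. For Gad2, the comparison of lines in tChIP-Seq was past the threshold with library totals as the only scaling (-0.62, adjusted p = 0.00795 in edgeR) and at a threshold of 0.05 (-0.55), and without single libraries it lay between -0.76 and -0.41. For Slc32a1, the Wald test of DESeq2 ended the call between the lines in tChIP-Seq (-0.94, adjusted p = 0.0129) and that of the interaction (-0.83, adjusted p = 0.0252). Without single libraries the Slc32a1 values lay between -1.05 and -0.79 between the lines in tChIP-Seq, between -0.75 and -0.50 between the assays in Rosa H2B-FLAG, and between -0.95 and -0.68 for the interaction. The number of regions called between the lines in single ChIP-Seq moved from 386 to 34 with the Wald test of DESeq2, to 251 with library totals, to 1191 at a threshold of 0.05, and to between 118 and 296 without single libraries, and that between the assays in Camk2a H2B-FLAG moved from 8617 to 5563 with the Wald test. The cause of these shifts was not tested. With only regions of at least 10 counts in every library, which tests fewer regions, 5 astrocyte and 4 endothelial genes were called lower between the lines in tChIP-Seq, in place of 9 and 10, and no microglial gene and no GABA-B gene. Same-numbered libraries did not deviate together (r from -0.0183 to 0.0446 over 18 pairs, within and between lines). The titles give single and tandem libraries of a line the same numbers, so they may share a preparation. With few counts per region in tChIP-Seq, such an r cannot exclude this pairing. With a block for each numbered preparation the interaction was -1.17 for Gad1 and -0.81 for Slc32a1 (adjusted p = 0.00918 in edgeR), both still called. With a replicate block the line comparison in tChIP-Seq gave -1.03 for Gad1, -0.54 for Gad2 and -0.93 for Slc32a1, 5468 regions were called in place of 5682, and no call at the 3 members changed, while Slc6a13 was not called (adjusted p = 0.0152 in edgeR). Summing all rows within 1000 bp of each gene gave the same counts, since each has a single row there. Counts of 20 to 56 per tChIP-Seq library limit what can be seen at the members.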
